A study of Canis lupus familiaris with 29 samples.

Results

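Lymph nodes taken before any drug was given were compared between dogs whose later remission was short and dogs whose later remission was long. The labels give newly diagnosed diffuse large B-cell lymphoma for the dogs, the study also admitted marginal zone lymphoma in transition to it, and RNA of whole node biopsies was sequenced. Of the 29 libraries, 15 came from the biopsy of Day 0, and 14 of these came from dogs with a recorded length of remission. The 7 dogs with a remission of 238 days or fewer (PENN05, MN07, MN05, MN08, MN03, MN10 and PENN03) form the short class, with a median of 172 days and a lowest value of 136 days. The 7 dogs with a remission of 240 days or more (MN02, PD04, MN09, PD03, PD05, PENN04 and MN06) form the long class, with a median of 307 days. MN06 was still in remission when last recorded, at 568 days, so its time is a lower limit. PD01 has no recorded remission and was left out.

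After the Day 0 biopsy the dogs were randomized to oral valspodar, an inhibitor of the drug efflux pump ABCB1, or to placebo. Each class holds 3 placebo and 4 valspodar dogs. A second biopsy was taken on Day 4, on valspodar or placebo. It is available from the 7 short-remission dogs and from 6 long-remission dogs, all but PD04. Doxorubicin, the anthracycline that all dogs were scheduled to receive, was also to start on Day 4, and the study does not state which came first. Day 0 biopsies were incisional wedges and Day 4 biopsies were tru-cut cores, so day and biopsy method cannot be told apart. The identifier prefixes MN, PENN and PD cover 5, 2 and 0 dogs of the short class and 3, 1 and 3 dogs of the long class, so that the PD dogs stand in the long class alone. Golden Retrievers were 1 of 7 short-remission dogs and 4 of the 6 long-remission dogs with a recorded breed. The short class held 4 females and 3 males, and the 6 long-remission dogs with a recorded sex were 2 females and 4 males. Ages ran from 3.8 to 9.9 years in the short class and from 4.2 to 11.6 years among the long-remission dogs with a recorded age.

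Diffuse large B-cell lymphoma replaces the node with large neoplastic B cells, among which macrophages, neutrophils, T cells and stromal cells remain. RNA of a whole node therefore holds the transcripts of the tumour and of its surroundings together, and fewer cells of a type and less RNA per cell cannot be told apart. Macrophages are the main source of complement C1q, the molecule that starts the classical complement pathway. Immediate early genes are transcription factors and other regulators that cells switch on within minutes to an hour of a stimulus, such as engagement of the antigen receptor or stress. B-cell markers of the labelled tumour were not analysed here, since they could not be matched to the gene identifiers used.

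Expression is given as FPKM, fragments scaled to the length of the transcript and to the size of the library, and differences as short minus long on the scale of log2(FPKM + 1), which understates the difference of low genes. The number of reads cannot be read from FPKM values. Relative depth, estimated from the steps between low values, ran from 0.847 to 1.56 in the short class and from 0.871 to 1.84 in the long class on Day 0 (median 1 in each). Between 14278 and 15612 genes were above 0 in a Day 0 library. The Day 4 library of MN02 was shallower, at a relative depth of 0.287. Of the 13 dogs with both days, 12 had a Day 0 library that resembled its own dog's Day 4 library most, and MN02 did not.

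No gene separated the classes before treatment. Of 11677 genes tested with limma, with treatment as a covariate, 0 (0%) passed an adjusted p of 0.05 and the smallest adjusted p was 1. At an unadjusted p under 0.05 there were 200 genes (1.71%), 82 higher and 118 lower in the short class. This split was not stable, at 127 higher and 111 lower without PENN03. No gene had all 7 short-remission dogs above all 7 long-remission dogs (0%), and none had them all below (0%). The standard error of a difference had a median of 0.169 over the genes tested, and the median difference was 0.

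The classes were also mixed on the principal components. The first principal component of the 14 nodes carried 16.7% of the variance and the second 11%. Remission class accounted for 0.0652% of the variance of these scores (exact permutation within treatment groups, 1400 assignments, p = 0.991). PENN03 of the short class stood far to the right on component 1, at 52.8, and low on component 2, at -41, where PD03 of the long class was lowest at -44.9. The median Spearman correlation across genes between libraries of 2 dogs was 0.924 between classes, 0.93 within the short class and 0.918 within the long class.

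**Figure D1:**
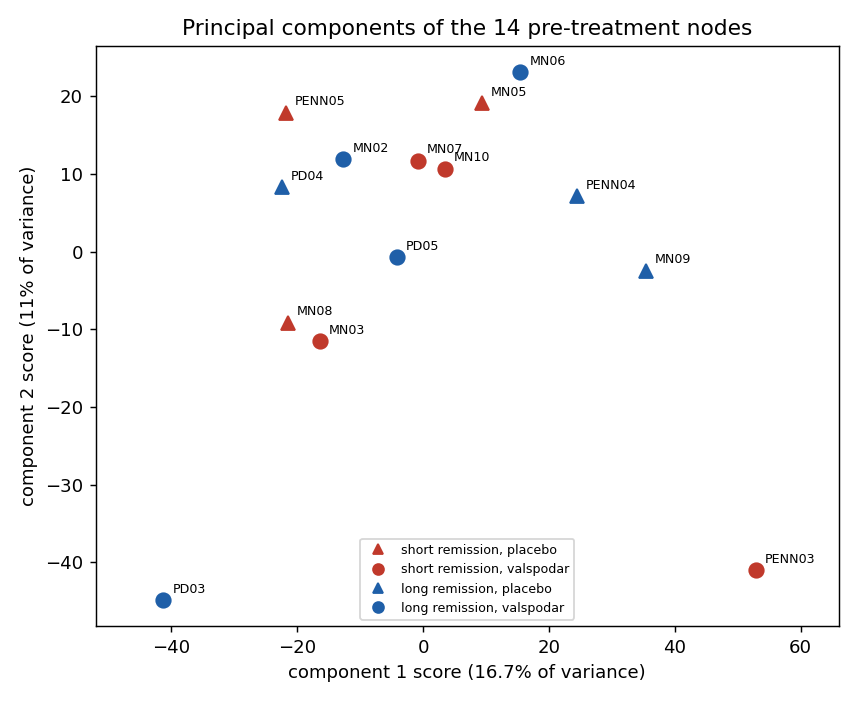
Scores of the 14 pre-treatment nodes on principal components 1 and 2 of log2(FPKM + 1), with 1 point per dog, coloured by remission class and shaped by treatment. Red and blue points are mixed, and PENN03 and PD03 lie at the bottom right and bottom left, away from the other 12 dogs.

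A gene symbol could be attached to 23 of the genes tested, through the identifiers that the study printed for them. The study had listed these genes for differences between Day 4 and Day 0, and its text also names differences between treatment groups. Its tests held these and other dogs, and they did not concern remission. On Day 0, 16 of the 23 were higher and 7 lower in the short class in their fitted difference. Over all genes tested, 49.8% were higher in the short class. None of the 23 passed the adjusted threshold, against 0% of all genes, and none had an unadjusted p under 0.05, against 1.71% of all genes. The values below are therefore descriptions of levels whose differences did not exceed the spread between dogs.

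**Figure D2:**
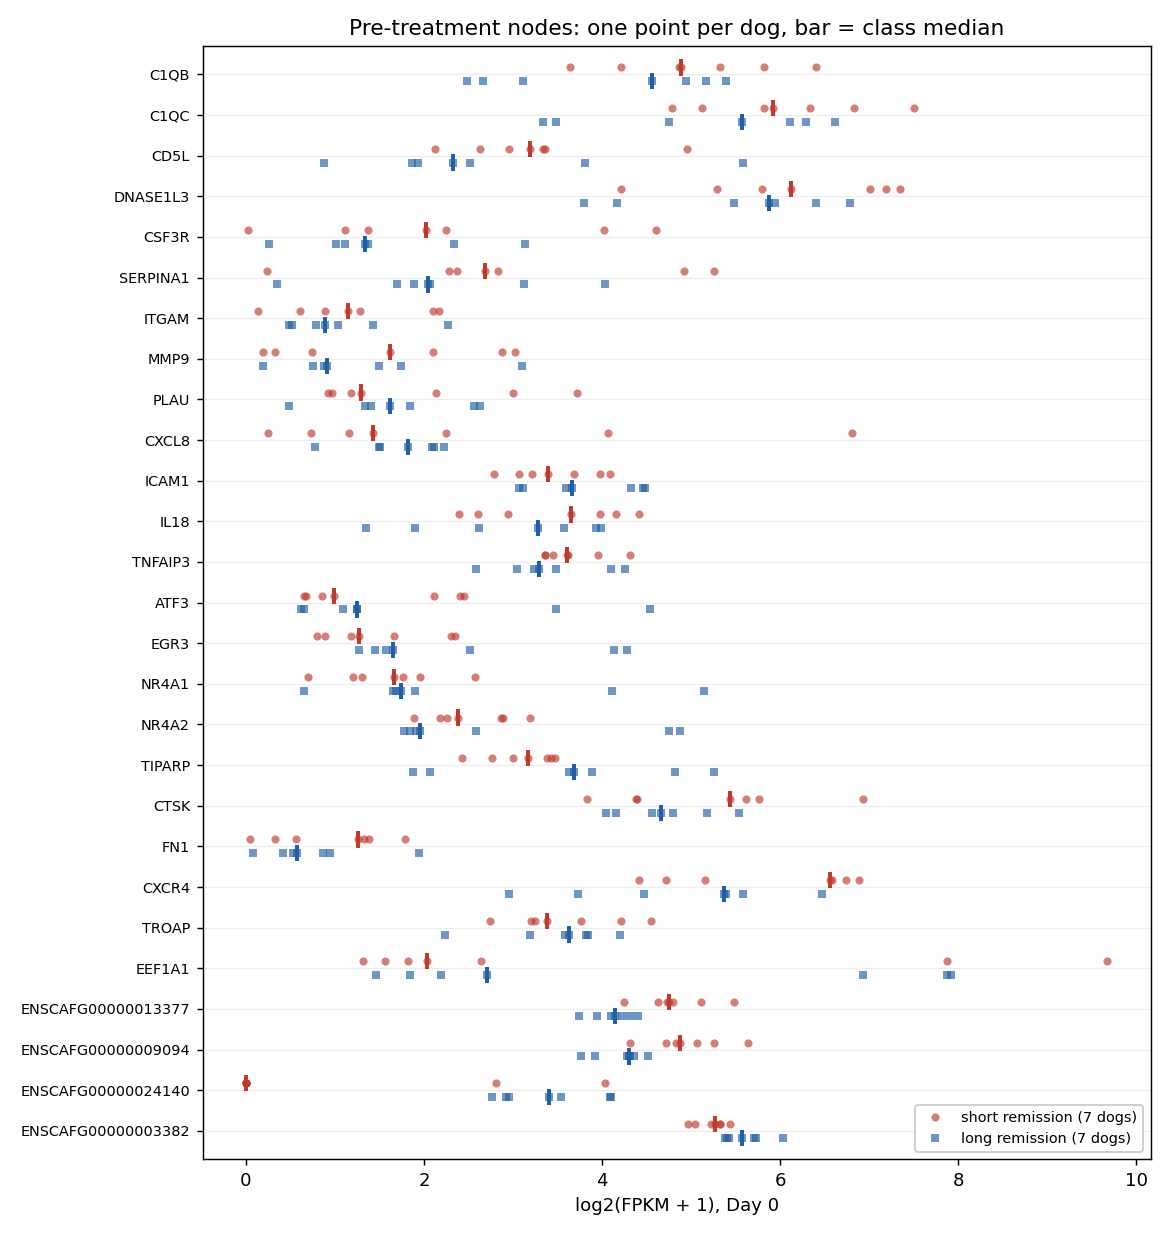
Day 0 level of the 23 named genes and of 4 genes known by identifier, on the log2(FPKM + 1) axis, with 1 point per dog (7 red circles for short and 7 blue squares for long remission) and a bar at each class median. The classes overlap in every gene shown, and MN09 and MN06 are the 2 blue points far to the right for ATF3, EGR3, NR4A1 and NR4A2.

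Among the 6 gene lists with an identified member, the macrophage and complement genes had the highest median difference. Of 16 genes on this list 4 could be identified, C1QB, C1QC, CD5L and DNASE1L3, and all 4 had a higher fitted level in the short class, with a median difference of 0.765 against 0 over all genes. C1QB and C1QC encode chains of complement C1q and lie side by side in the CanFam3 assembly, at chr2:76649362-76655660 and chr2:76659986-76664962. Across the 14 dogs their levels ran together, with a Pearson r of 0.984 on the log2 scale, as a description over libraries that share their method.

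C1QB stood at 11.5 FPKM in the lowest short-remission dog, 28.7 at the median and 83.7 in the highest. In the long class it was 4.59, 22.6 and 41.1 FPKM. The highest values were those of MN03 and PENN05, both of short remission, and the 3 lowest were those of MN09, PENN04 and MN06, all of long remission, with the other dogs overlapping between. The difference was 0.98 ± 0.57 (SE), with a 95% interval of -0.25 to 2.2 (limma, adjusted p = 1). Leaving out each dog in turn gave 0.73 to 1.25.

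C1QC ran in a similar way, from 26.6 through 59.7 to 180 FPKM in the short class and from 9.07 through 46.5 to 96.9 FPKM in the long class. Its difference was 0.88 ± 0.58, and the classes overlapped widely. Within the MN dogs, 5 short and 3 long, the difference was 1.68 for C1QB and 1.52 for C1QC, and with the identifier prefix as a covariate it was 1.81 and 1.75. With sex as a covariate C1QC came to 0.58 in a fit that also lacks PENN04, whose sex is not recorded, and without PENN04 alone it came to 0.60. Without MN09 and MN06 the values were 0.49 for C1QB and 0.47 for C1QC. None of these passed the adjusted threshold. In the 4 short and 4 long valspodar dogs the C1QB medians were 28.4 and 26.2 FPKM, and the C1QC medians 56.8 and 57.2 FPKM. In the 3 short and 3 long placebo dogs they were 28.7 and 5.33 FPKM for C1QB and 59.7 and 10.2 FPKM for C1QC. The contrast differed between treatments by -1.36 ± 1.12 for C1QB and -1.65 ± 1.13 for C1QC, and neither passed the adjusted threshold.

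CD5L, a scavenger-family protein secreted by tissue macrophages, ran from 3.35 to 29.9 FPKM in the short class (median 8.15) and from 0.836 to 46.8 FPKM in the long class (median 4.01). The highest dog of all was the long-remission dog PD04. DNASE1L3, a secreted nuclease of macrophages and dendritic cells, ran from 17.6 to 162 FPKM (median 68.9) in the short class and from 12.9 to 109 FPKM (median 57.8) in the long class. The differences of 0.52 ± 0.64 and 0.65 ± 0.59 were close to their standard errors.

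Of the neutrophil-associated genes, all 5 identified were high in MN08 and MN03 of the short class, and 4 of them also in PD04 of the long class. Of 10 listed genes 5 were identified, and all 5 had a higher fitted level in the short class, with a median difference of 0.261. CSF3R, the receptor of the neutrophil growth factor G-CSF, was 23.4 FPKM in MN08 and 15.3 FPKM in MN03, while the other 5 short-remission dogs lay between 0.0174 and 3.74 FPKM. In the long class it ran from 0.198 to 7.79 FPKM, the highest being PD04. SERPINA1, which encodes the protease inhibitor alpha-1 antitrypsin, showed the same dogs, at 37.3 FPKM in MN08, 29.2 FPKM in MN03 and 15.4 FPKM in PD04. PENN03 was the lowest of all dogs, at 0.178 FPKM.

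PD04 was the highest dog of all for ITGAM, at 3.82 FPKM against 3.51 FPKM in MN03 and 3.29 FPKM in MN08, and for MMP9, at 7.56 against 7.15 and 6.34 FPKM. The fitted differences were 0.69 ± 0.68 for CSF3R and 0.77 ± 0.73 for SERPINA1. ITGAM, the integrin subunit CD11b of myeloid cells, differed by 0.13 ± 0.35, and MMP9, a gelatinase stored in neutrophil granules, by 0.26 ± 0.55. PLAU, the urokinase plasminogen activator, differed by 0.19 ± 0.48, although its median was lower in the short class, at 1.45 against 2.08 FPKM. It was 12.2 FPKM in MN03 and 7.03 FPKM in MN08, while PD04 stood at the long-class median. Without MN03, ITGAM came to -0.06, MMP9 to -0.02 and PLAU to -0.11, so that their direction rested on that dog among others.

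Of the NF-kB response list, 4 of 15 genes were identified and 3 of them were higher in the short class, with a median difference of 0.367. CXCL8, the neutrophil attractant interleukin-8, was 111 FPKM in MN08 and 15.7 FPKM in MN03 and at most 3.74 FPKM in the other 12 dogs. Its difference was 0.67 ± 0.87, and without MN08 it was -0.13. IL18, an inflammatory cytokine of macrophages, ran from 4.26 to 20.4 FPKM in the short class and from 1.55 to 14.9 FPKM in the long class. TNFAIP3, the NF-kB feedback inhibitor A20, ran from 9.24 to 18.9 FPKM and from 5.02 to 18.1 FPKM. ICAM1, an adhesion molecule, was the member with the lower values in the short class, at 5.92 to 16 FPKM against 7.4 to 21.4 FPKM, and differed by -0.36 ± 0.29. Among the 14 dogs, IL18 ran with the macrophage gene C1QB (Pearson r = 0.912 on the log2 scale) and CXCL8 with the neutrophil gene SERPINA1 (r = 0.733), as a description, and the part of such cells in the values was not tested.

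CXCR4, the receptor for the chemokine CXCL12 that holds B cells in lymphoid tissue, had the highest fitted difference of the 23 genes, 1.01 ± 0.59 (95% interval -0.26 to 2.29; limma, adjusted p = 1). It ran from 20.4 through a median of 93.6 to 117 FPKM in the short class and from 6.75 through 40.3 to 87.9 FPKM in the long class. MN08, PENN03, PENN05 and MN03, all of short remission, lay above every long-remission dog, while MN05, MN10 and MN07 lay within the range of the long class. Among the MN dogs alone the difference was 0.07.

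Stromal, cell cycle and other genes make up the rest. CTSK, the collagen-degrading protease cathepsin K, had a median of 42.5 FPKM in the short class and 24.4 FPKM in the long class, and 3 short-remission dogs, with MN03 highest at 121 FPKM, lay above every long-remission dog (difference 0.49 ± 0.42). FN1, the matrix protein fibronectin, was at or below 2.85 FPKM in all 14 dogs and differed by 0.19 ± 0.32. These are 2 of 16 stromal genes listed. TROAP, a mitotic spindle protein and the 1 of 25 cell cycle genes identified, differed by 0.08 ± 0.29. EEF1A1, a translation elongation factor whose near-identical gene copies can exchange reads, took 2 levels. It was 121 to 817 FPKM in MN05, MN08, PENN04, PD05 and PD03 and 1.48 to 5.56 FPKM in the other 9 dogs, so its difference of -0.57 ± 1.59 is uncertain.

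Immediate early genes were the group with lower fitted values in the short class. All 5 identified of the 13 listed, ATF3, EGR3, NR4A1, NR4A2 and TIPARP, had a negative difference, with a median of -0.512. NR4A1, the nuclear receptor Nur77, was 34.5 FPKM in MN09 and 16.3 FPKM in MN06, both of long remission, against 0.574 to 4.97 FPKM in the other 12 dogs. NR4A2, its relative Nurr1, was 28.4 and 25.9 FPKM in these dogs and 2.43 to 8.16 FPKM in the others. MN09 and MN06 thus lay above all other dogs, and the remaining 5 long-remission dogs lay in the range of the short class or below it.

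EGR3, a zinc-finger transcription factor, was 18.5 FPKM in MN09 and 16.5 FPKM in MN06 and no higher than 4.74 FPKM elsewhere. ATF3, a stress-response transcription factor, was 22.3 and 10.2 FPKM in this pair and 4.46 FPKM or less elsewhere. TIPARP, an ADP-ribosyltransferase that represses the aryl hydrocarbon receptor, was 37.4 and 27.2 FPKM, against 2.66 to 13.8 FPKM in the other dogs. The same pair of dogs was highest for all 5 genes.

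The fitted difference was -0.92 ± 0.52 for EGR3, -0.82 ± 0.62 for NR4A1, -0.51 ± 0.49 for TIPARP, -0.39 ± 0.62 for ATF3 and -0.29 ± 0.54 for NR4A2 (limma, adjusted p = 1 for each). Without MN09 and MN06 the difference was -0.21 for EGR3 and turned to 0.07 for NR4A1, 0.07 for TIPARP, 0.46 for ATF3 and 0.51 for NR4A2. The class medians, short against long, were 1.42 and 2.14 FPKM for EGR3, 2.16 and 2.35 FPKM for NR4A1, 0.982 and 1.37 FPKM for ATF3 and 7.98 and 11.9 FPKM for TIPARP, lower in the short class for each. For NR4A2 the median was higher in the short class, at 4.23 against 2.88 FPKM. MN09 was also the lowest dog for C1QB, at 4.59 FPKM, and MN06 the third from the bottom, at 7.64 FPKM.

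**Figure D3:**
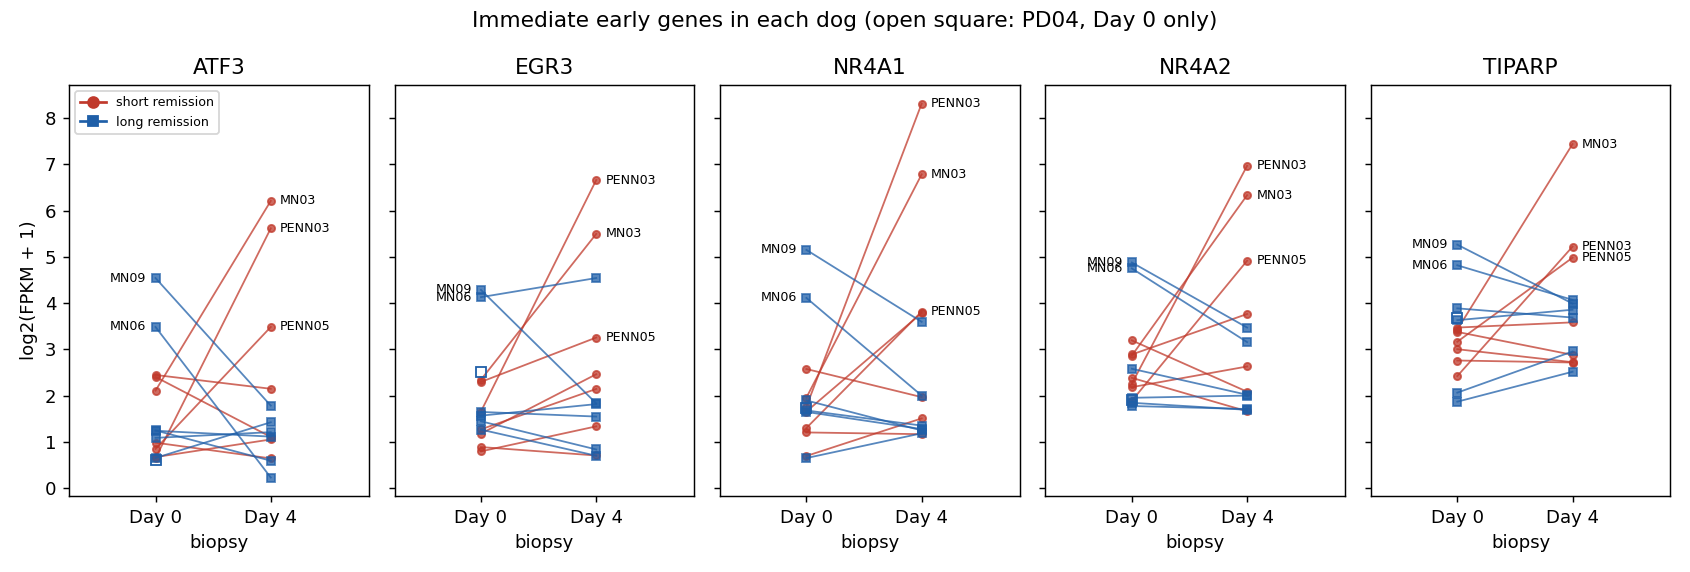
Level of 5 immediate early genes on Day 0 and Day 4, on the log2(FPKM + 1) axis, with a line for each dog (red circles short, blue squares long remission). MN09 and MN06 are highest on Day 0, and MN03 and PENN03 are highest on Day 4, with PENN05 next in ATF3, NR4A1, NR4A2 and TIPARP.

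On Day 4 the highest values of all 5 genes belonged to dogs of the short class. NR4A1 was 316 FPKM in PENN03 and 109 FPKM in MN03, followed by 13.1 FPKM in PENN05 and 12.8 FPKM in MN05, all of short remission. The highest long-remission dog was MN09 at 11.1 FPKM, and the other 5 lay between 1.28 and 3.01 FPKM. NR4A2 was 124 FPKM in PENN03, 79.5 FPKM in MN03 and 29.2 FPKM in PENN05, against at most 10.1 FPKM in the long class. EGR3 was 100 FPKM in PENN03 and 44.1 FPKM in MN03, followed by long-remission MN06 at 22.3 FPKM, above its own 16.5 FPKM of Day 0. TIPARP was 172 FPKM in MN03. The low dogs of both classes overlapped.

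All 5 immediate early genes were higher in the short class on Day 4, with a median difference of 1.74, and none passed the adjusted threshold (0% of all genes did). The difference was 2.16 ± 1.12 for NR4A1 and 1.86 ± 0.91 for ATF3 (limma, adjusted p = 0.907 for each). Without MN03 and PENN03 the values were 0.31 for NR4A1, 0.36 for ATF3 and 0.43 for NR4A2, and they turned to -0.09 for EGR3 and -0.17 for TIPARP. Of the 23 named genes, 11 had opposite signs on the 2 days, against 32.6% of all genes tested. The study listed the 23 from tests between days or treatment groups that held these same dogs. That share is therefore no fair background for them.

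MN03 and PENN03 were also the highest dogs on Day 4 for TNFAIP3, ICAM1 and CXCR4. TNFAIP3 was 105 FPKM in MN03, 63.1 FPKM in PENN03 and 25.4 FPKM in PENN05. In the long class it lay between 7.24 and 11.3 FPKM, and 4 of 7 short-remission dogs were above that range. Its difference of 1.19 ± 0.51 was the only one of the 23 with an unadjusted p under 0.05 on Day 4, against 4.27% of all genes, and its adjusted p was 0.907 (limma). Without MN03 and PENN03 it was 0.36. CXCR4 was 651 FPKM in MN03 and 317 FPKM in PENN03, against 3.53 to 73.6 FPKM in the long class. ICAM1 was 48.3 FPKM in MN03 and 36.9 FPKM in PENN03, with long-remission PENN04 next at 32 FPKM. IL18 was highest in PD05, at 39.2 FPKM, and MN02, at 32.9 FPKM, both of long remission. CXCL8 was 94.9 FPKM in MN03 and 18.4 FPKM in MN08, but PENN03, at 6.97 FPKM, lay below long-remission PENN04, at 10.5 FPKM.

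Within dogs, the Day 4 level was compared with the Day 0 level of the same dog. NR4A1 was higher on Day 4 in 5 of 7 short-remission dogs, by as much as 6.55 on the log2 scale in PENN03, and in 1 of 6 long-remission dogs. EGR3 was higher in 6 of 7 and in 2 of 6 dogs, and NR4A2 in 5 of 7 and in 1 of 6. ATF3 was higher in 4 of 7 and in 2 of 6, and TIPARP in 4 of 7 and in 3 of 6. The changes in the short class exceeded those in the long class by 3.13 ± 1.06 for NR4A1, 2.55 ± 1.03 for ATF3, 2.27 ± 0.75 for EGR3, 2.21 ± 0.88 for NR4A2 and 1.28 ± 0.72 for TIPARP.

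The adjusted p was 0.804 for the first 4 of these genes and 0.81 for TIPARP (limma), so none passed, as for all genes (0%). At an unadjusted p under 0.05 these 4 genes were the only ones of the 23, and 6.13% of all genes tested had one. The median of the 5 differences was 2.27, and that of all genes -0.0099. The study listed the 23 from tests between days or treatment groups that held these same dogs. The test of change was also added after the data had been seen. The figures for all genes are therefore no fair background for the 23, and nothing is read from the comparison. Leaving out MN03 and PENN03 brought NR4A1 to 1.54, EGR3 to 1.22, ATF3 to 1.23, NR4A2 to 1.01 and TIPARP to 0.26, while leaving out MN09 and MN06 brought them to 2.67, 2.02, 1.65, 1.83 and 0.86. All 5 stayed above 0 in these fits, but each fit still held the other pair of dogs.

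For the neutrophil genes the short-minus-long difference in change had a median of -1.19, and 4 of the 5 were negative, with PLAU the exception. PENN04 of the long class was the highest dog on Day 4 for MMP9, at 111 FPKM, for SERPINA1, at 134 FPKM, and for CSF3R, at 72.8 FPKM. In this library the 10 highest genes held 40.6% of the summed FPKM, the largest share of the libraries compared, against 20.2% in the same dog on Day 0 and a median of 17% in the long class on Day 4, and the part of this in the values was not tested. On Day 0 the same dog had 0.874, 2.71 and 1.16 FPKM. Without PENN04 the difference in change went from -1.19 to -0.17 for MMP9, from -0.62 to -0.14 for ITGAM, from -1.28 to -0.58 for CSF3R and from -1.40 to -0.68 for SERPINA1.

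For the macrophage and complement genes all 4 differences in change were negative, with a median of -0.634. Without PENN04 they were -0.22 for C1QB, -0.19 for C1QC and -0.27 for DNASE1L3, and CD5L turned to 0.14. On Day 4 itself all 4 genes had a difference above 0, with a median of 0.549.

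**Figure D4:**
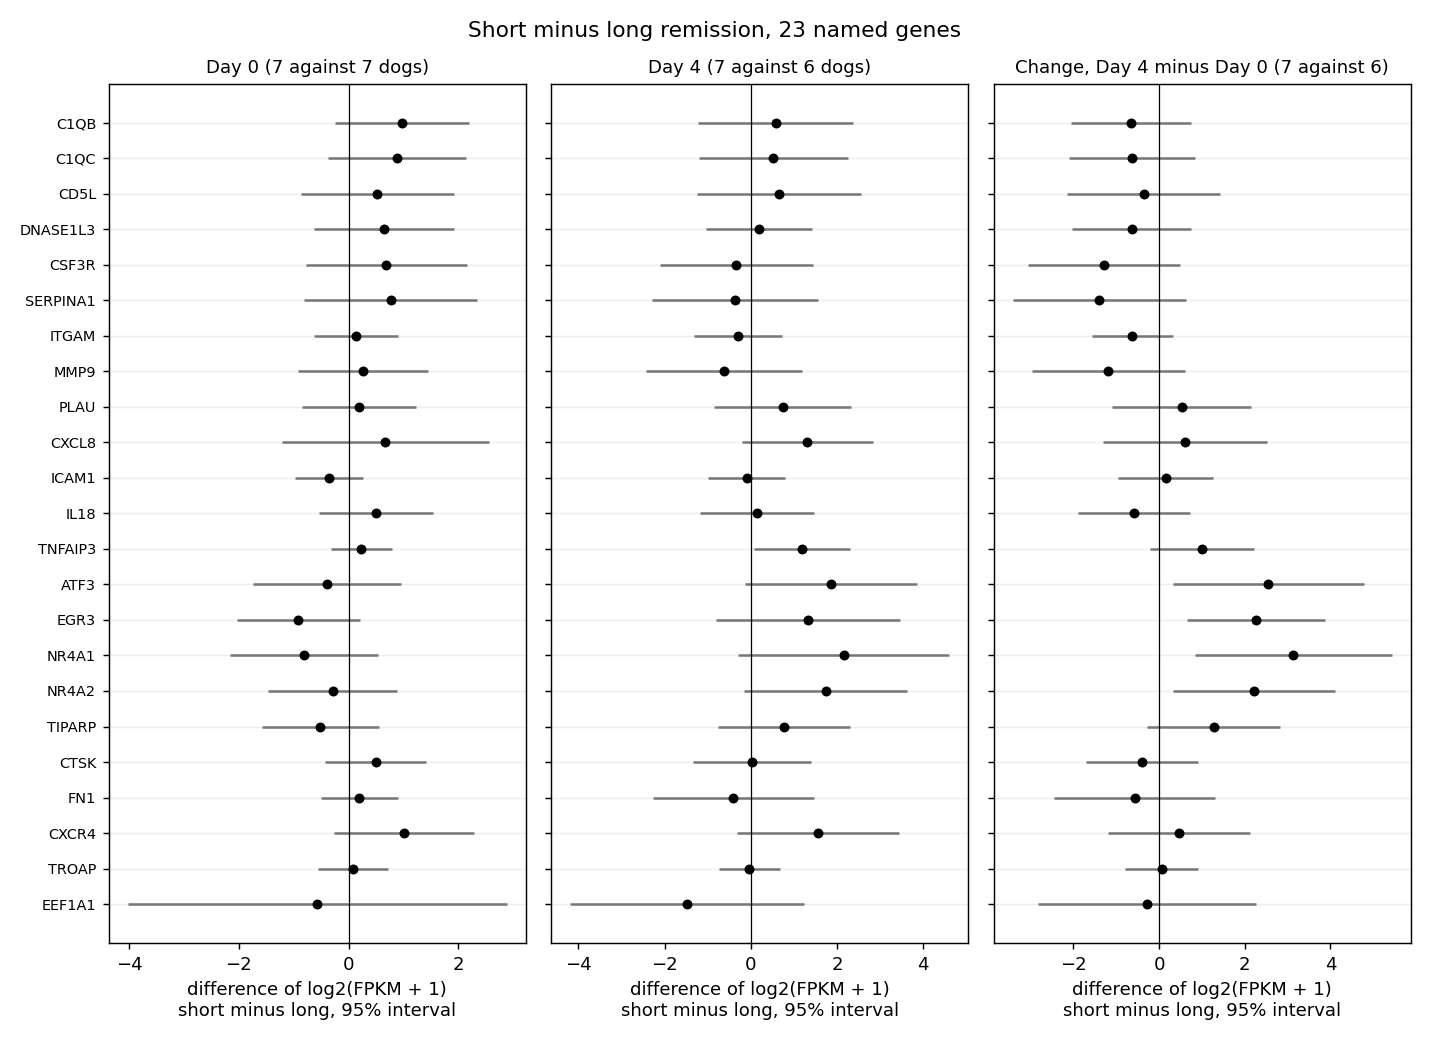
Short-minus-long difference of log2(FPKM + 1) for the 23 named genes on Day 0 (left), on Day 4 (centre) and in the change between them (right), as fitted value with unadjusted 95% interval. Every Day 0 interval crosses 0, and the points of ATF3, EGR3, NR4A1, NR4A2 and TIPARP lie left of 0 on Day 0 and right of 0 on Day 4.

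Remission was also taken as a time instead of a class. Over 11677 genes tested for a slope on log2 days of remission, 0 (0%) passed the adjusted threshold and 470 (4.03%) had an unadjusted p under 0.05. C1QB had a slope of -1.39 ± 0.42 and C1QC of -1.25 ± 0.45 per doubling of the days, meaning lower levels at longer remission. EGR3 had a slope of 1.07 ± 0.43. Of the 23 genes with a symbol, these 3 had an unadjusted p under 0.05, and their adjusted p was 1 (limma). MN06 entered at its lower limit of 568 days, the longest time of all, and without it the slope was -1.40 ± 0.55 for C1QB, -1.43 ± 0.59 for C1QC and 0.52 ± 0.50 for EGR3.

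**Figure D5:**
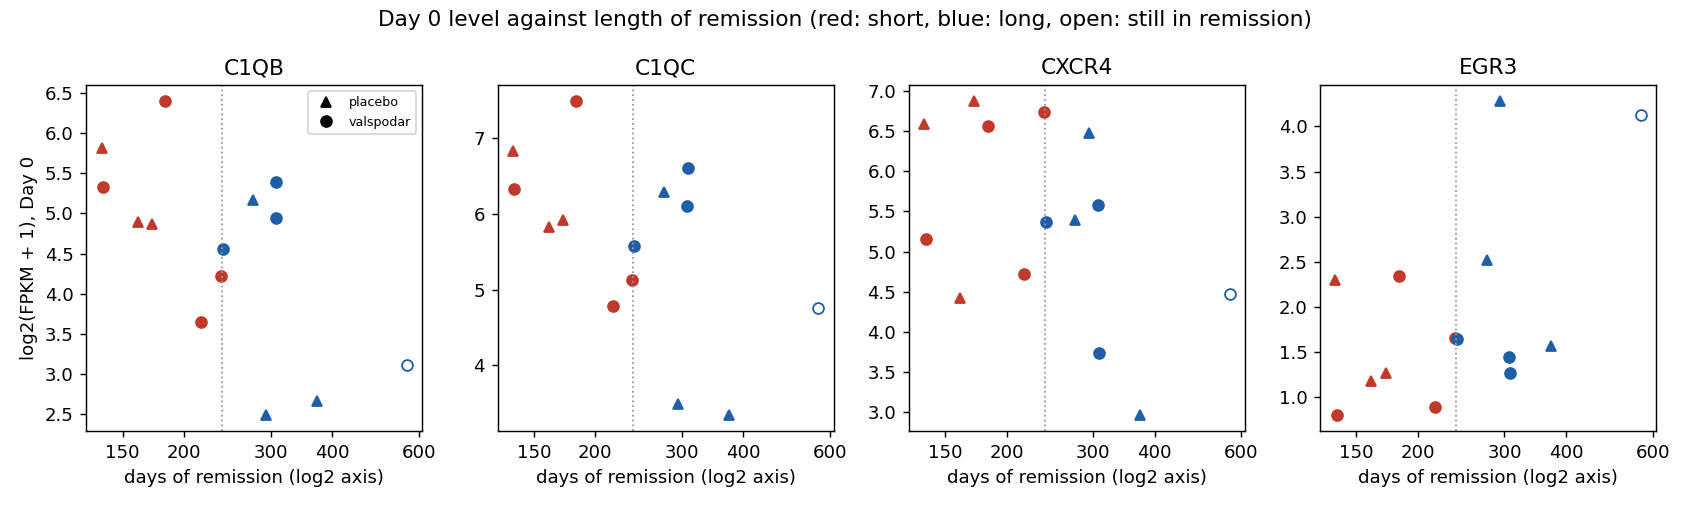
Day 0 level of C1QB, C1QC, CXCR4 and EGR3 on the log2(FPKM + 1) axis against days of remission on a log2 axis, with 1 point per dog; the dotted line separates the classes and the open circle is MN06. The lowest C1QB and C1QC values belong to dogs with 294 days or more, and the other long-remission dogs lie among the short-remission dogs.

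The dogs on either side of the class limit were alike in some of these genes. PENN03, at 238 days, and MN02, at 240 days, had C1QB at 17.6 and 22.6 FPKM and NR4A1 at 2.4 and 2.21 FPKM. CXCR4 was 106 FPKM in PENN03 and 40.3 FPKM in MN02, and SERPINA1 0.178 and 3.13 FPKM.

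The short-long contrast was also compared between dogs that went on to valspodar and to placebo, although neither had been given at the time of this biopsy. No gene passed the adjusted threshold for a difference of the contrasts (0%), and 673 genes (5.76%) had an unadjusted p under 0.05. Of the 23 named genes 3 did, namely ICAM1, DNASE1L3 and EEF1A1, each with an adjusted p of 0.802 (limma). DNASE1L3 had medians of 145 FPKM in short and 17 FPKM in long placebo dogs, and of 53.5 and 59 FPKM in the valspodar dogs. ICAM1 ran from 5.92 to 9.48 FPKM in the 4 short valspodar dogs and from 11.1 to 21.4 FPKM in the 4 long ones, which did not overlap. Of all genes tested, 1.64% likewise had all 4 short valspodar dogs below all 4 long ones, and 1.33% had them above. In the placebo dogs the order of the ICAM1 medians was the opposite, at 14.7 and 7.68 FPKM.

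The smallest Day 0 p-values on either side belonged to genes known here by identifier, and 2 from each side are described. They were chosen by these same values, which are therefore a description. ENSCAFG00000013377 ran from 18 through 26 to 43.7 FPKM in the short class and from 12.4 through 16.7 to 20.2 FPKM in the long class, and 6 of 7 short-remission dogs were above every long-remission dog. Its Day 4 difference had the opposite sign, at -0.30 ± 0.36 against 0.70 ± 0.17 on Day 0. ENSCAFG00000009094 ran from 18.9 through 28.4 to 48.7 FPKM and from 12.6 through 18.8 to 21.8 FPKM. Its difference was 0.75 ± 0.19 on Day 0 and 0.62 ± 0.23 on Day 4 (limma, adjusted p = 1 and 0.907).

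In the other direction, ENSCAFG00000003382 ran from 30.2 through 37.5 to 42.3 FPKM in the short class and from 40.7 through 46.6 to 64.7 FPKM in the long class, and 6 of 7 short-remission dogs were below every long-remission dog. The difference was -0.38 ± 0.10 on Day 0 and -0.32 ± 0.15 on Day 4. ENSCAFG00000024140 was listed at 0 in 5 of 7 short-remission dogs and at 5.81 to 16.1 FPKM in all 7 long-remission dogs. On Day 4 it was listed at 0 in 2 short-remission and 3 long-remission dogs, and of the 5 dogs at 0 on Day 0 only MN10 was at 0 again. A listed 0 in FPKM values can be a failed estimate, so no fold is given.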

How the data were processed

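RNA of lymph node biopsies was sequenced with TruSeq libraries. According to the study's methods and the submitters' notes, the authors trimmed reads with Trimmomatic 0.33, mapped them to CanFam3 with HISAT2 2.0.2, and quantified each library with Cufflinks 2.2.1, correcting for reads that map to several places; the deposited FPKM values come from Cuffnorm (classic-fpkm), with no pooling. The table holds 24580 genes in 29 libraries. FPKM values are not counts, so no count model was used.

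Short and long remission were compared with limma 3.58.1 in R 4.3.3 (trend) on log2(FPKM + 1), with treatment as covariate, for the 11677 genes whose average over the table reached 1 FPKM, and p-values were adjusted by Benjamini-Hochberg (threshold 0.05). The dog was the replicate. The fits were tested on simulated data. The named genes are the 23 with a symbol in the study's tables and, of the genes with the smallest p on Day 0, 2 in each direction. The members, gene lists and tests were chosen with earlier results of these data known. The rule also asked for further genes (ABCB1, ABCG2, CD34, KIT and PROM1 among them, with their own tests); these, 20 of 26 gene lists and the B-cell markers were not analysed here, as symbols could not be matched to the Ensembl identifiers. Alternatives changed the pseudocount, filter, scaling, covariates and samples.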

Additional observations from a re-analysis of the deposited data

Results flagged for a closer look

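In 112 sets of 6 or 7 dogs (27 genes in each class on each day, and the scores of 2 components), Dixon's test for a single value far from the rest marked 7. Chance alone marks about 1 set in 20, which is close to the share marked here. On Day 4, PENN04 was far above the other long-remission dogs for MMP9 (ratio of gap to range 0.779) and ITGAM (0.687), PD03 for FN1 (0.677), MN06 for EGR3 (0.706) and MN09 for NR4A1 (0.661). FN1 was 58.7 FPKM in PD03 and at most 3.65 FPKM in the other long-remission dogs. On Day 0, the score of PENN03 on component 1 was far above those of the other short-remission dogs (0.584), and that of PD03 on component 2 far below those of the other long-remission dogs (0.624). A pair of dogs standing apart together, such as MN09 and MN06 on Day 0, is not marked by this test.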

How the results depend on the processing

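For the Day 0 and Day 4 contrasts, days of remission and the change between days, 0 genes passed under every alternative run except in placebo dogs alone (3 against 3), where 3 genes passed on Day 0. For the contrast between treatments, leaving out 1 dog gave 0 to 1 genes (1 without PD04, PD05, MN06, MN07 or MN05). The variance share of class on the 2 components ranged from 2.79e-06% (without MN02) to 3.38% (without PD03). Without MN09 the 200 Day 0 genes at an unadjusted p under 0.05 became 352, without PENN05 312, and without MN09 and MN06 366. They were 329 with no filter, of 17914 genes tested, and 329 with the identifier prefix, of 11677. They were 610 in MN dogs, 587 in valspodar dogs and 332 in placebo dogs. The fit of both days, which is not a Day 0 contrast, gave 326. The split of the 200 Day 0 genes was 82 higher and 118 lower in the short class. It turned to 127 and 111 without PENN03, 150 and 131 without PENN03 and MN02, and 218 and 114 in placebo dogs. With the prefix it was 164 and 165. The 499 of Day 4 became 329 without MN03, 763 without MN09, 804 without MN07 and 269 without MN03 and PENN03. The 673 of the contrast between treatments became 417 without PENN05. The 470 of days of remission became 784 with no filter, of 17914 genes tested, and 757 with the prefix. The 716 of the change became 458 without MN03 and 317 without MN03 and PENN03. The fits without pairs of dogs that stood apart, the fit without genes at a constant value and the tests of change were chosen after seeing the data. The cause was not tested.

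Some Day 0 differences of named genes turned. With the prefix EEF1A1 was 0.78 and TROAP -0.022; with sex, in a fit that also lacks PENN04, whose sex is not recorded, TROAP was -0.031, PLAU -0.12, FN1 -0.016 and TNFAIP3 -0.0059 (without PENN04 alone 0.087, -0.00019, 0.073 and 0.071). Without MN06 NR4A2 was 0.067. In MN dogs EEF1A1 was 2.19, TROAP -0.071, FN1 -0.024 and TNFAIP3 -0.20. In valspodar dogs TROAP was -0.14, IL18 -0.084, PLAU -0.31, FN1 -0.083 and DNASE1L3 -0.36. In placebo dogs EEF1A1 was 3.08, MMP9 -0.064 and ICAM1 0.37. Without MN09 and MN06 ITGAM was -0.039, ATF3 0.46, NR4A2 0.51, TIPARP 0.066 and NR4A1 0.069. Leaving out 1 dog at a time, TROAP ranged from -0.092 to 0.28, ITGAM from -0.060 to 0.33, PLAU from -0.11 to 0.38, CXCL8 from -0.13 to 1.03, EEF1A1 from -1.47 to 0.19, MMP9 from -0.023 to 0.57, ATF3 from -0.69 to 0.047 and NR4A2 from -0.50 to 0.082. The fit of both days gives a class difference averaged over Day 0 and Day 4, not a Day 0 difference; its sign was opposite to that of Day 0 for ITGAM (-0.093), MMP9 (-0.18), FN1 (-0.089), ATF3 (0.70), EGR3 (0.10), NR4A2 (0.69), TIPARP (0.060) and NR4A1 (0.59). The tests on ABCB1, ABCG2, CD34, KIT and PROM1 were not run. A dog could not serve as a block between the classes, since each dog belongs to 1 class; both days of a dog entered the tests of change and the fit of both days. FPKM values carry no read counts, so depth limits could not be computed, and the 7 dogs per class limit precision.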
